A study of Mus musculus with 9 samples.

Results

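The 9 genes Jun, Junb, Jund, Fos, Fosb, Fosl1, Fosl2, Atf3 and Batf3 were taken by symbol from the gene table, which holds 56289 genes, and each symbol matched 1 row. They encode proteins of the AP-1 group, basic leucine zipper factors that bind DNA as pairs. Jun proteins can pair with each other or with Fos proteins, whereas Fos proteins need a partner from the Jun family or a related family. Atf3 and Batf3 encode smaller proteins without the long activation domains of Jun and Fos that pair with Jun family members, and Atf3 is known as a stress-response gene. Some AP-1 genes, such as Jun and Fos, are known as immediate early genes, induced briefly by growth factors, stress and cytokines such as TNF-α. In synovium AP-1 activity is linked to the expression of matrix metalloproteinases.

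RNA was sequenced from cultures labelled as the murine macrophage-like line RAW264.7 (strain BALB/c), with 3 libraries in each of 3 groups. The Con group was untreated, the TNF-α group received recombinant human TNF-α at 20 ng/ml for 24 h, and the TNF-α+WBT group received the same TNF-α for 24 h together with 1.0 μg/ml of WBT, the extract of a multi-herb tablet used for rheumatoid arthritis. The labels call the agent of the last group WBP, and the group was taken as the one the study names TNF-α+WBT. The values are FPKM, fragments counted on a transcript divided by its length and by the sequencing depth, so levels can be compared between genes.

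The marker genes did not bear out the labelled cell type. Of 18 macrophage genes, 1 (Cd14, a lipopolysaccharide co-receptor) lay above 1 FPKM in all 9 libraries, and 7 of the list, among them the leukocyte genes Ptprc and Itgam, the myeloid factor Spi1 and the macrophage marker Adgre1, had a value of 0 in each library, so the 9 genes are described below for the labelled groups without naming a cell type. The summed level of the macrophage list was 6.14 to 7.50 FPKM in Con, 7.11 to 8.21 in TNF-α and 7.24 to 8.89 in TNF-α+WBT. By contrast, 12 of 14 fibroblast genes, 8 of 12 Schwann cell genes and 12 of 12 genes that every cell uses lay above 1 FPKM throughout. Estimated depth was 16895000 to 26125000 fragments per library.

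All 9 AP-1 genes were detected, at widely different levels. Jun, Junb, Jund, Atf3, Fosl2, Fos and Fosl1 lay above 1 FPKM in every library, whereas Fosb stayed below 1 FPKM and Batf3 between 0 and 0.51 FPKM. After TNF-α, Jun, Fos, Fosl2 and Atf3 fell and Junb and Jund rose. That is 6 of 9 genes called in limma at an adjusted p under 0.05, beside 4.86% of all 25417 genes tested and 8.37% of those with a mean of at least 1 FPKM. By direction, 4 of 9 fell, beside 1.93% of all genes, and 2 of 9 rose, beside 2.94%. At the thresholds of the study, a fold change over 2 at an unadjusted p under 0.05, Jun and Atf3 passed, 2 of 9 genes beside 2.42% of all. With WBT added to TNF-α, none of the 9 was called, where the same threshold called 0.00393% of all genes, although Jun and Atf3 were higher in every TNF-α+WBT library than in every TNF-α library. Where 3 libraries of each group do not overlap, the exact permutation test (two-sided) gives p = 0.1, the smallest that this design allows. The plot of the 9 genes by library shows every value.

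**Figure D1:**
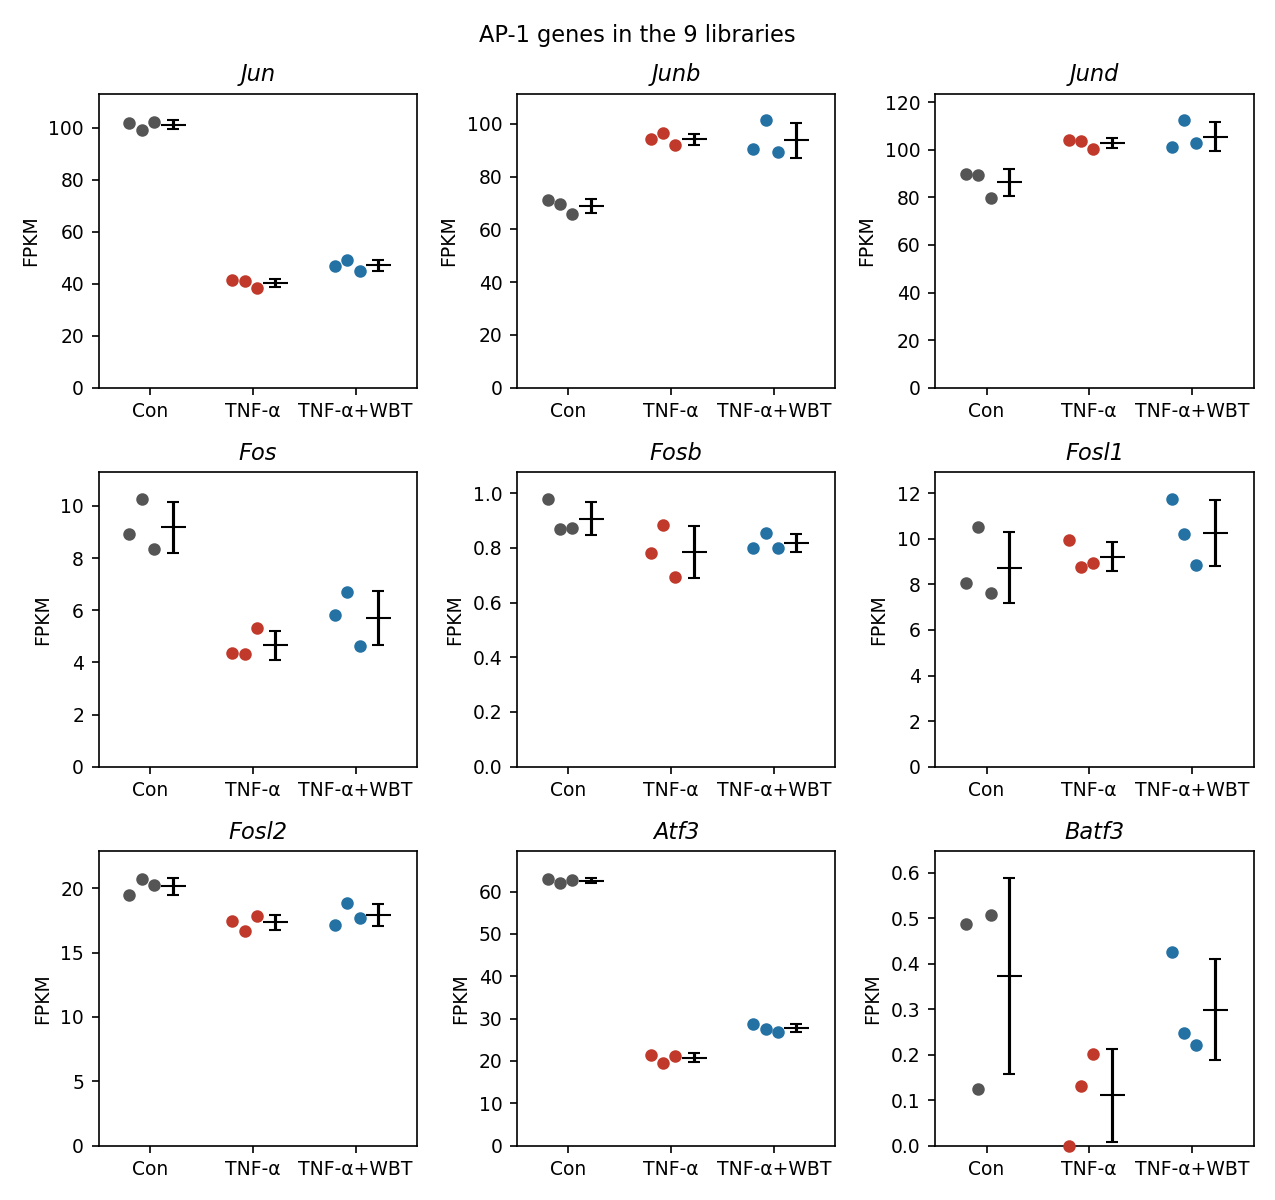
FPKM (linear axes starting at 0, a scale of its own per gene) of the 9 AP-1 genes in the 3 Con, 3 TNF-α and 3 TNF-α+WBT libraries. Points are libraries, and the bar beside them is the mean ± SD (n = 3). Jun and Atf3 drop from 101.0 and 62.6 FPKM in Con to 40.2 and 20.7 in TNF-α, Junb moves from 68.8 to 94.1, and Batf3 stays under 0.51 FPKM with 1 TNF-α library at 0.

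Jun, the founding member of the family and the partner of most other AP-1 proteins, is ENSMUSG00000052684 on the minus strand at chr4:95049034-95052222 (GRCm38). Its level was 101.8, 99.0 and 102.3 FPKM in the Con libraries, 41.3, 40.9 and 38.5 in those of TNF-α and 46.9, 49.3 and 44.9 in those of TNF-α+WBT. All 3 groups were apart from each other, with Con highest and TNF-α lowest. After TNF-α the level was 2.51-fold lower (log2 fold change -1.33, SE 0.04, 95% interval -1.43 to -1.23, adjusted p = 1.18e-06 in limma). This was the 14th smallest p of the 25417 genes. An antisense gene, Junos, shares 232 of the 3189 bases of the Jun transcript, and as the library kit does not mark strand their reads there cannot be told apart. Junos was at most 2.31 FPKM.

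Atf3, whose protein can repress or activate targets depending on its partner, is ENSMUSG00000026628 on the minus strand at chr1:191170296-191218039. It had the smallest p of the 9 genes for TNF-α against Con. The Con libraries held 63.1, 62.0 and 62.7 FPKM, those of TNF-α 21.5, 19.5 and 21.2, and those of TNF-α+WBT 28.7, 27.6 and 26.9, again with no overlap between any pair of groups. TNF-α lowered it 3.01-fold (log2 fold change -1.59, SE 0.05, adjusted p = 5.71e-07 in limma), the 8th smallest p of all genes.

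Fos, whose protein needs a Jun partner to bind, is ENSMUSG00000021250 on the plus strand at chr12:85473890-85477273. It was an order of magnitude below Jun, with 8.94, 10.2 and 8.35 FPKM in Con, 4.35, 4.34 and 5.31 in TNF-α and 5.81, 6.70 and 4.62 in TNF-α+WBT. Every Con library lay above every stimulated one, while the TNF-α and TNF-α+WBT libraries overlapped. The level after TNF-α was 1.95-fold lower (log2 fold change -0.96, SE 0.15, adjusted p = 0.00638). Jun, Fos and Atf3 thus each fell at 24 h of TNF-α. The time point itself limits this, as no earlier one was sampled.

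Junb, a Jun relative that often acts as a weaker activator than Jun, is ENSMUSG00000052837 on the minus strand at chr8:84974484-84978718. Its level moved the other way, from 71.1, 69.5 and 65.9 FPKM in Con to 94.0, 96.3 and 92.1 in TNF-α and 90.3, 101.3 and 89.4 in TNF-α+WBT. Both stimulated groups lay above Con and overlapped each other. The log2 fold change with TNF-α was 0.45 (SE 0.05, adjusted p = 0.00176).

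The promoter windows of these 4 genes are shown because they carry the larger of the called changes and because the Jun and Atf3 promoters are known to bind AP-1 and ATF factors themselves. They run from 250 bases before the start to 50 after it, 5′ to 3′ on the gene's strand, from RefSeq on GRCm38.p6, in which 8 of the 9 genes had an entry and Fosl1 had none. Capitals mark matches to the motifs searched on both strands, the AP-1 element TGACTCA (TRE), its variant TGACATCA, the cyclic AMP element TGACGTCA (CRE) and the part TGACGT that it contains, the TATAAA box, the κB site and the CArG box. The windows lie at chr4:95052173-95052472 (Jun), chr1:191183284-191183583 (Atf3), chr12:85473640-85473939 (Fos) and chr8:84978699-84978998 (Junb), and the Atf3 window spans the start of its main transcript. The RefSeq start is the same as the GENCODE gene start for Jun and Fos, and for Junb it lies 30 bases upstream of the GENCODE start given above.
Jun: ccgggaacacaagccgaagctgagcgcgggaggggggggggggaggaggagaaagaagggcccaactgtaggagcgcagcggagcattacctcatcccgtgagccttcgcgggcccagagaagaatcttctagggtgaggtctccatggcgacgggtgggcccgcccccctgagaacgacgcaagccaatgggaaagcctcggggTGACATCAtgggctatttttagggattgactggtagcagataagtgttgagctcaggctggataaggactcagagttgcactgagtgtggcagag
Atf3: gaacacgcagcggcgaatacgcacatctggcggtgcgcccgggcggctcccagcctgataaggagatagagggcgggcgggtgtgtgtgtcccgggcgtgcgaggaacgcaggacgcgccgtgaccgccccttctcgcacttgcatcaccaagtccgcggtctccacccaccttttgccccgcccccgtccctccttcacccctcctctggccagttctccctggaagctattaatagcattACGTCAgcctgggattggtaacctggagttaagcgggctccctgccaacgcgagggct
Fos: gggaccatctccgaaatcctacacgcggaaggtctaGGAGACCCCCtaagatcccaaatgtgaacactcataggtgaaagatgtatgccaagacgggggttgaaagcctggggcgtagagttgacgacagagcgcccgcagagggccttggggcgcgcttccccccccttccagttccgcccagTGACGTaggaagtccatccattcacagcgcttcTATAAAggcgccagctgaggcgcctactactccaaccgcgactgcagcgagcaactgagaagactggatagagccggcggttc
Junb: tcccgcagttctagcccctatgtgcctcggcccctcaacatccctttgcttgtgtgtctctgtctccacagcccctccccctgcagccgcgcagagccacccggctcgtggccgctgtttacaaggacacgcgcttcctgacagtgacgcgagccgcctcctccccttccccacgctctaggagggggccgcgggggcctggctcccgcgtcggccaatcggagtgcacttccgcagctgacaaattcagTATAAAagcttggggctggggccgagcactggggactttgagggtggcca

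The Jun window held TGACATCA with its first base 45 bases before the start, a match found in 3.62% of 32851 promoter windows of this length. In the Atf3 window the match was ACGTCA, the reverse strand of TGACGT, 8 bases before the start. Fos held TGACGT at 66 bases, TATAAA at 33 and a κB match at 214 bases before the start, and Junb held TATAAA beginning at its RefSeq start base, which is 30 bases before the GENCODE start. Of all windows, 7.51% held TGACGT, 13.6% TATAAA and 4.5% a κB site. The κB site was also matched in the Fosb and Fosl2 windows, while the RefSeq windows of Jund and Batf3 held none of the motifs. The Jund window ends 1160 bases short of the GENCODE start of Jund and so does not cover it, and the Fosl2 and Batf3 windows lie around starts 671 and 567 bases downstream of the GENCODE gene starts. TGACTCA (5.2% of windows), TGACGTCA (1.79%) and the CArG box (1.63%) were found in none of the 8 windows. Bases farther upstream or downstream were not searched, so this does not show that a promoter lacks these sites. Of the genes that rose, Junb held only TATAAA, and Jund held no match in a window that does not cover its GENCODE start. The TGACATCA, TGACGT and κB matches lay in Jun, Atf3, Fos and Fosl2, which fell, and in Fosb, which was not called. A match describes letters in the window, not binding, and a link between matches and direction was not tested.

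Jund, the Jun relative usually regarded as the steadily expressed one, is ENSMUSG00000071076 at chr8:70698949-70700616. The libraries held 90.0, 89.4 and 79.8 FPKM in Con, 104.2, 103.6 and 100.4 in TNF-α and 101.2, 112.5 and 102.9 in TNF-α+WBT. Both stimulated groups again lay above Con. The log2 fold change with TNF-α was 0.25 (SE 0.06, adjusted p = 0.0439), so the call lay close to the threshold, and it was lost when any library other than TNF-α+WBT 2 was left out (adjusted p up to 0.128). Gm11175, on the opposite strand and at 1.12 to 3.28 FPKM, shares 877 of the 1668 bases of Jund.

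Fosl2, which encodes the Fos relative Fra-2, is ENSMUSG00000029135 at chr5:32135801-32157842 and was the most abundant Fos family transcript. Its libraries held 19.5, 20.7 and 20.2 FPKM in Con, 17.5, 16.7 and 17.8 in TNF-α and 17.2, 18.9 and 17.7 in TNF-α+WBT. Every Con library lay above every stimulated one. The level fell by 0.21 on the log2 scale after TNF-α (SE 0.05, adjusted p = 0.0481), a call that was likewise lost when any library other than TNF-α+WBT 2 was left out (adjusted p up to 0.150).

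Fosl1, which encodes Fra-1, is ENSMUSG00000024912 at chr19:5447547-5455946. Its groups overlapped, with 8.05, 10.5 and 7.64 FPKM in Con, 9.93, 8.75 and 8.94 in TNF-α and 11.7, 10.2 and 8.83 in TNF-α+WBT. TNF-α gave a log2 fold change of 0.09 with a 95% interval of -0.23 to 0.40 (adjusted p = 0.839). Fosl1 is uncertain in these unstranded libraries, since 1163 of the 1864 bases of its transcript overlap Ccdc85b on the other strand, which was at 11.0 to 14.9 FPKM.

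Fosb, which encodes a Fos relative with a long and a truncated protein form, is ENSMUSG00000003545 at chr7:19302696-19310051. It was low, with 0.98, 0.87 and 0.87 FPKM in Con, 0.78, 0.88 and 0.69 in TNF-α and 0.80, 0.86 and 0.80 in TNF-α+WBT. These levels stood on about 21.8 to 75.9 estimated fragments, and no comparison passed the test (adjusted p = 0.676 for TNF-α against Con).

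Batf3, known for its part in the development of cross-presenting dendritic cells, is ENSMUSG00000026630 at chr1:191097847-191108945, 61.35 kb from Atf3. The Con libraries held 0.49, 0.13 and 0.51 FPKM, those of TNF-α 0, 0.13 and 0.20, and those of TNF-α+WBT 0.43, 0.25 and 0.22. None of these values stood on more than about 8.6 fragments. No change was detectable at this depth (adjusted p = 0.313 after TNF-α), and the log2 fold change of -1.18 with an interval of -2.36 to 0.00 depends on the pseudocount. Over the 9 genes the median log2 fold change was -0.21, beside 0.0028 over all genes tested, and the groups did not overlap for 6 of them, beside 21.2% of all genes.

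**Figure D2:**
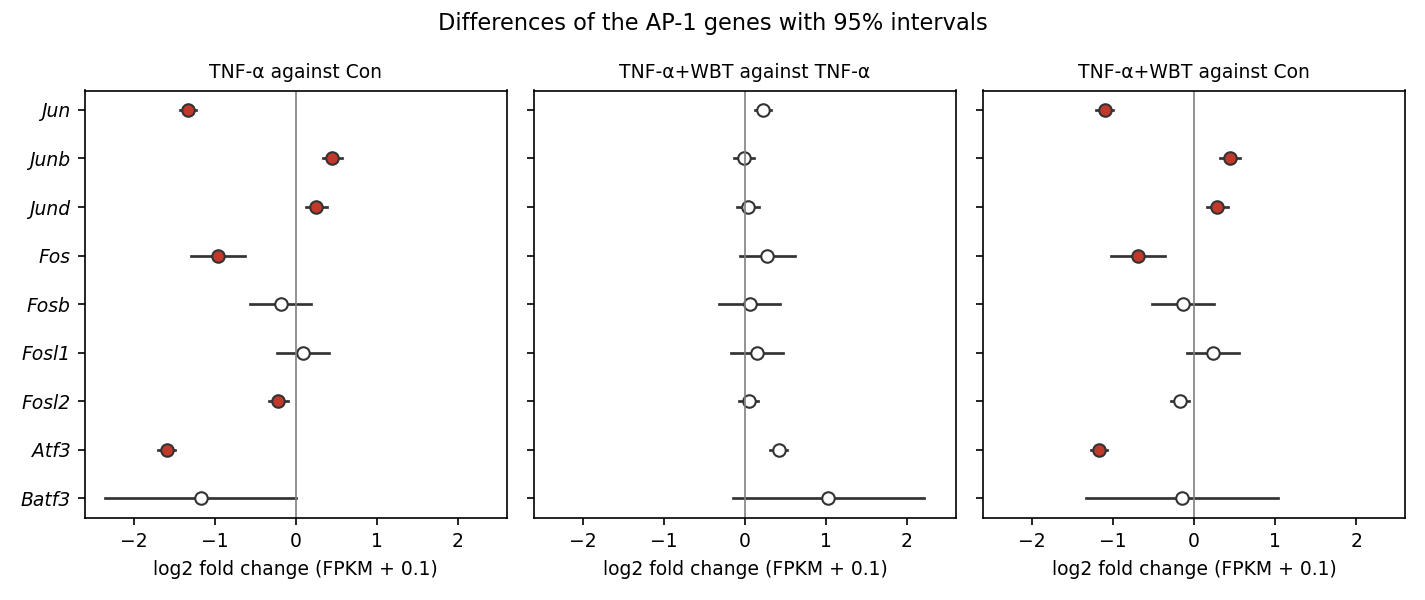
Log2 fold changes of the 9 AP-1 genes on the log2(FPKM + 0.1) scale, with 95% intervals from limma, for TNF-α against Con, TNF-α+WBT against TNF-α and TNF-α+WBT against Con. Filled points passed an adjusted p under 0.05, as 6, 0 and 5 genes did.

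The comparison of TNF-α+WBT with TNF-α addresses what the extract added to the stimulus. Atf3 was 1.34-fold higher with WBT (log2 fold change 0.42, SE 0.05, 95% interval 0.31 to 0.52). Its unadjusted p of 1.11e-05 was the 3rd smallest of all genes in limma, and its adjusted p of 0.0794 missed the threshold. A pseudocount of 0.01 in place of 0.1 gave an adjusted p of 0.0439, and over all alternatives it ranged up to 0.364. Jun had a log2 fold change of 0.22 (SE 0.04, 95% interval 0.12 to 0.32, unadjusted p = 0.000785, adjusted p = 0.354). These 2 of 9 genes had an unadjusted p under 0.05, beside 6.31% of all genes, and the groups did not overlap for them and for Batf3, 3 of 9 genes beside 11% of all. Batf3 was near the floor, with about 0, 2.6 and 3.1 estimated fragments in TNF-α and 4.5, 4 and 3 in TNF-α+WBT. These fragments overlapped, so its FPKM gap carries little weight. At the thresholds of the study no AP-1 gene passed, beside 1.12% of all genes.

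For the other genes the intervals show what size of WBT difference the data allow. The log2 fold change was 0.28 for Fos (95% interval -0.06 to 0.61, adjusted p = 0.821), with the TNF-α+WBT library 3 inside the range of TNF-α. Junb gave -0.01 (interval -0.13 to 0.11) and Jund 0.04 (interval -0.09 to 0.17), both abundant members with narrow intervals. Fosl1 gave 0.15, Fosl2 0.04, Fosb 0.06 and Batf3 1.03, with adjusted p from 0.816 to 0.983. The median of the 9 was 0.15, beside -0.0020 over all genes.

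TNF-α+WBT was also compared with Con. This shares the TNF-α+WBT libraries with the comparison above and the Con libraries with the first, so its values are set beside theirs and are no separate support. Jun (log2 fold change -1.10, adjusted p = 5.18e-06 in limma), Atf3 (-1.17, adjusted p = 4.6e-06) and Fos (-0.69, adjusted p = 0.0404) were lower than in Con. Junb (0.44, adjusted p = 0.0025) and Jund (0.29, adjusted p = 0.029) were higher. These 5 of 9 genes stand beside 3.71% of all genes, the 3 lower ones beside 1.4% and the 2 higher ones beside 2.31%. At the thresholds of the study, Jun and Atf3 passed, 2 of 9 genes beside 2.29% of all. Fosl2 (-0.17, adjusted p = 0.131), Fosb (-0.13), Fosl1 (0.23) and Batf3 (-0.15) did not pass. The groups did not overlap for 7 of the 9 genes, beside 19.5% of all. With 1 library left out, Fos was called only without TNF-α 3 or TNF-α+WBT 2 (adjusted p up to 0.124 otherwise) and Jund only without Con 1, TNF-α 3 or TNF-α+WBT 1 (up to 0.0862 otherwise).

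**Figure D3:**
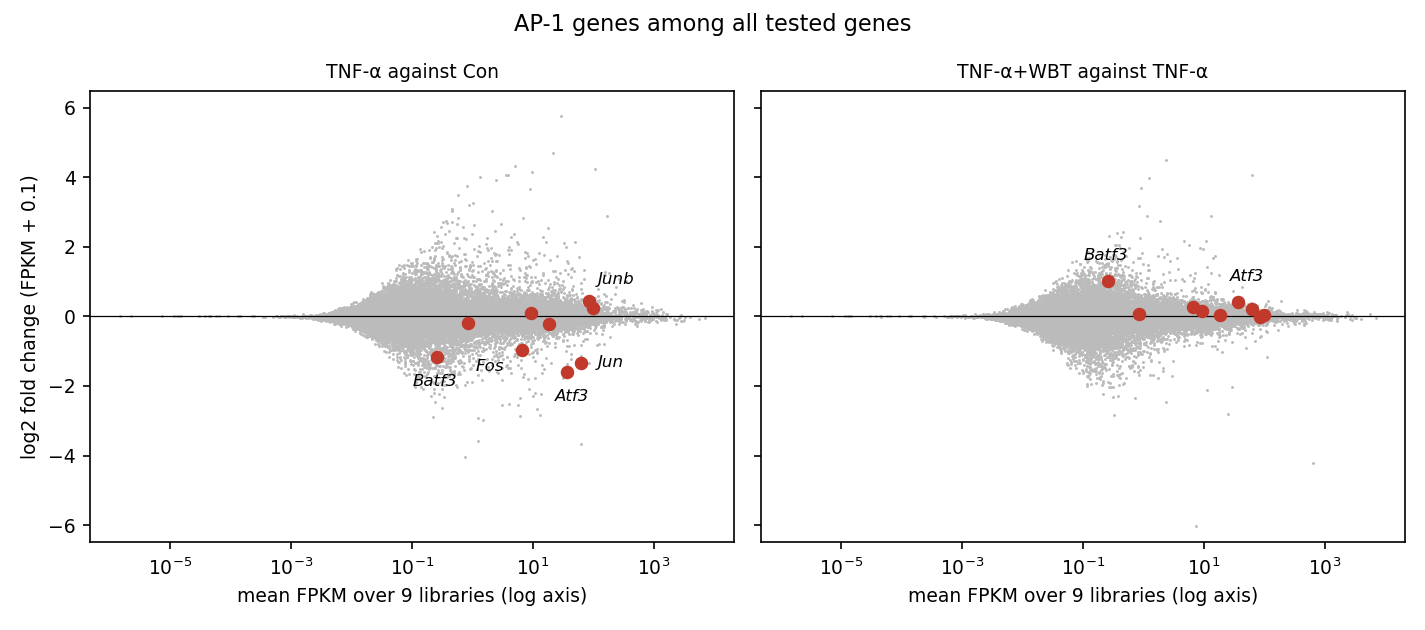
Mean FPKM over the 9 libraries (log axis) against the log2 fold change on the log2(FPKM + 0.1) scale for the 25417 tested genes (grey) and the 9 AP-1 genes (red) in 2 comparisons. After TNF-α, Atf3 and Jun have the 8th and 14th smallest p, at -1.59 and -1.33, and with WBT Atf3 has the 3rd smallest at 0.42.

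The make-up of the Jun family by mRNA differed between Con and the stimulated groups. Jun held 39.5% ± 1.56 (SD, n = 3) of the summed FPKM of Jun, Junb and Jund in Con, 17.0% ± 0.289 in TNF-α and 19.1% ± 0.487 in TNF-α+WBT. The Junb share was 26.9%, 39.7% and 38.0%, and the Jund share 33.7%, 43.3% and 42.9%. The summed level was 256.2 ± 7.60, 237.1 ± 5.36 and 246.2 ± 14.6 FPKM, so the drop in Jun stood beside higher Junb and Jund. No test was made on these shares, which describe mRNA and not protein.

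In the Fos family, Fosl2 held the largest share in each group, with 51.8%, 54.2% and 51.7% of the summed FPKM. The Fos share was 23.5% ± 0.906 in Con, 14.6% ± 1.47 in TNF-α and 16.4% ± 1.91 in TNF-α+WBT, and the Fosl1 share was 22.3%, 28.8% and 29.5%. The family summed to 39.0 ± 2.94, 32.0 ± 1.14 and 34.7 ± 2.47 FPKM. Jun family mRNA therefore exceeded Fos family mRNA in every library, by a ratio of 6.09 to 7.02 in Con, 7.05 to 7.85 in TNF-α and 6.71 to 7.44 in TNF-α+WBT. The Fos family shares, sums and ratios include Fosl1, whose level is uncertain because of its overlap with Ccdc85b.

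**Figure D4:**
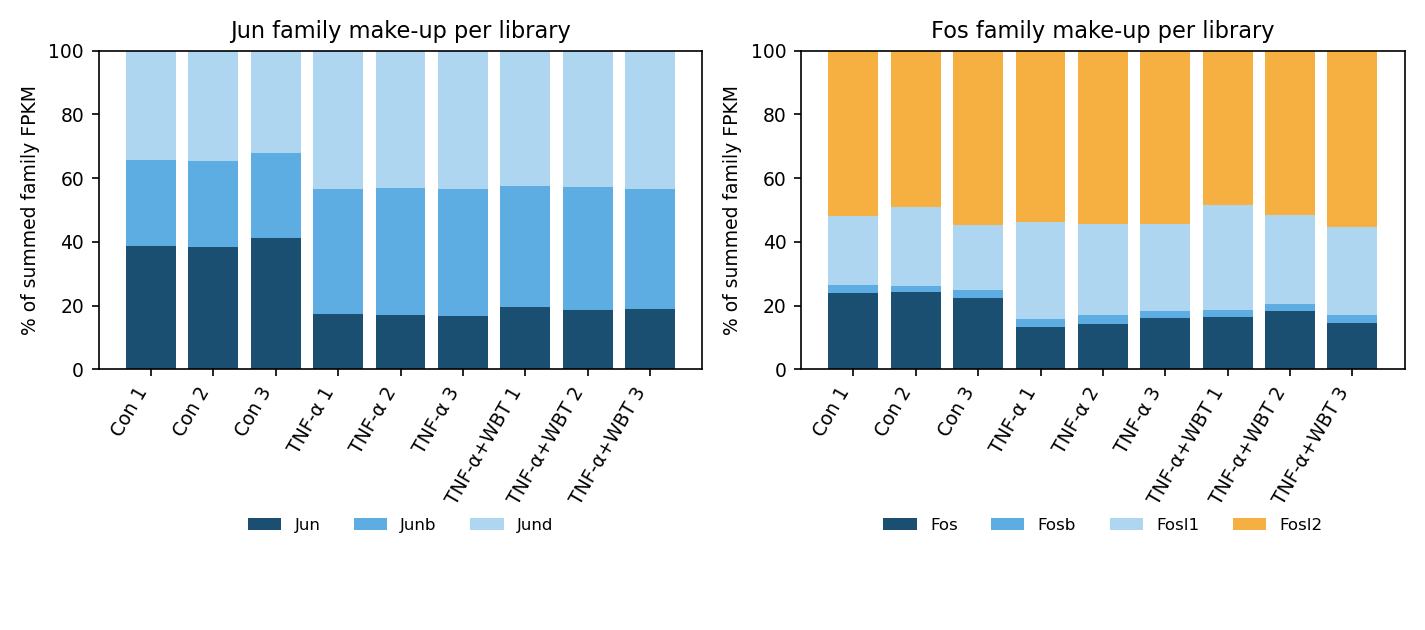
Percent of the summed FPKM of Jun, Junb and Jund (left) and of Fos, Fosb, Fosl1 and Fosl2 (right) held by each gene in each library. The Jun share drops from 39.5% on average in Con to 17.0% in TNF-α, and the Fos share from 23.5% to 14.6%.

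The order of the 9 genes by level differed with the stimulus. In all Con libraries Jun was highest, followed by Jund, Junb, Atf3 and Fosl2, each apart from its neighbours, and then by Fos and Fosl1, which overlapped, Fosb and Batf3. In all 6 stimulated libraries Jund was highest, followed by Junb, Jun, Atf3, Fosl2, Fosl1, Fos, Fosb and Batf3. Jund and Junb were apart in TNF-α but overlapped in TNF-α+WBT.

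The Atf3 gene has a pair of protein-coding transcripts with different starts, the main ENSMUST00000027941 and ENSMUST00000195117, whose start lies 34.699 kb farther upstream. The main transcript held 57.4, 56.5 and 55.3 FPKM in Con, 20.8, 18.5 and 20.8 in TNF-α and 28.0, 26.0 and 25.0 in TNF-α+WBT. The upstream-start transcript held 5.26, 5.19 and 7.00 FPKM in Con, 0.362, 0.774 and 0.493 in TNF-α and 0.649, 1.26 and 1.58 in TNF-α+WBT. Both were highest in Con without overlap, and of the stimulated groups only the upstream-start values overlapped. The upstream-start transcript made up 9.29% ± 1.61 of the gene in Con, 2.66% ± 1.18 in TNF-α and 4.23% ± 1.82 in TNF-α+WBT (n = 3 each). In TNF-α it stood on about 14.6 to 33.3 estimated fragments per library, which the quantification divides between transcripts that share exons, so the shares are a description with no test.

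**Figure D5:**
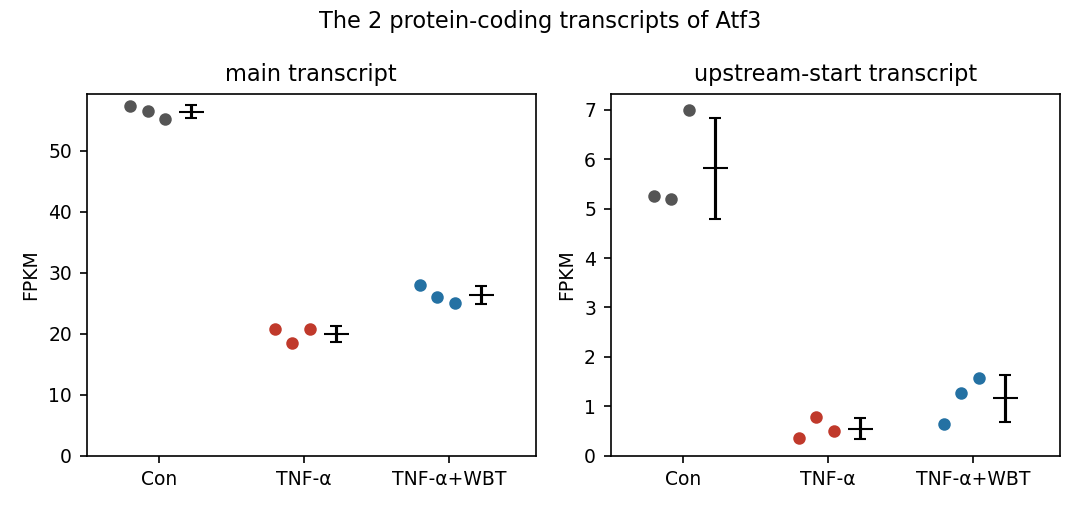
FPKM of the main (left) and the upstream-start (right) protein-coding transcript of Atf3 on linear axes starting at 0. Points are libraries and bars the mean ± SD (n = 3), and the upstream-start transcript averages 5.82 FPKM in Con, 0.543 in TNF-α and 1.16 in TNF-α+WBT.

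The Fos gene was mostly its protein-coding transcript ENSMUST00000021674, with 95.1% of the gene in Con, 87.0% in TNF-α and 90.4% in TNF-α+WBT. In TNF-α library 3, the non-coding transcript ENSMUST00000136122 was given 1.03 FPKM, 19.3% of the gene, and that library had the highest Fos level of its group.

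Among 12 other genes of the AP-1 superfamily, 11 were tested, and 3 rose and 1 fell with TNF-α, beside 2.94% and 1.93% of all genes tested. Jdp2, which encodes a Jun-dimerizing repressor, rose from 18.9 ± 1.09 to 28.2 ± 2.09 FPKM (log2 fold change 0.57, adjusted p = 0.00251 in limma). Nfe2l1, a factor of proteasome gene expression, rose from 40.6 to 60.2 FPKM (0.57, adjusted p = 5.14e-05), and Nfe2l2, the factor of the oxidative stress response, from 26.5 to 30.2 (0.18, adjusted p = 0.0398). Maf fell from 27.7 ± 3.09 to 18.7 ± 0.606 FPKM (-0.56, adjusted p = 0.0246). In TNF-α+WBT against Con, 2 were higher and 1 lower, beside 2.31% and 1.4% of all genes. Some relatives of Jun and Fos thus rose with TNF-α while Jun, Fos and Atf3 fell.

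Of 17 genes of the MAP kinase cascades that act upstream of AP-1, 1 rose and none fell. This was Mapk11, a p38 kinase, from 5.74 ± 0.531 to 10.8 ± 0.103 FPKM (log2 fold change 0.91, adjusted p = 0.000281). The Jun kinase gene Mapk9 was at 50.3 and 41.1 FPKM (adjusted p = 0.0868), Map2k1 at 60.2 and 53.2 (adjusted p = 0.0696) and Map3k11 at 19.9 and 27.6 (adjusted p = 0.289). With 1 of 17 called, the share was near the background of 4.86%.

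None of 11 genes for factors known to control Fos and Jun transcription was called with TNF-α, beside 4.86% of all genes tested. Srf, whose protein binds the CArG box, was at 17.7 FPKM in Con, 19.3 in TNF-α (adjusted p = 0.152) and 16.0 in TNF-α+WBT, a log2 fold change of -0.27 against TNF-α (unadjusted p = 0.000113, adjusted p = 0.179). Mef2a, Mef2d and Mrtfa had adjusted p of 0.151, 0.227 and 0.511 for TNF-α. None of 10 genes for regulators of AP-1 mRNA and protein turnover was called either. In lists as short as these, a count of 0 is near the share over all genes. Of the turnover genes, Zfp36l2, Zfp36l1 and Zfp36 encode proteins that promote the decay of AU-rich mRNAs, and Det1 a ubiquitin ligase part. Their adjusted p was 0.0947, 0.139, 0.374 and 0.632 in limma.

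Of 16 genes often listed as AP-1 targets, 4 rose and 1 fell with TNF-α, beside 2.94% and 1.93% of all genes tested. Mmp9, a gelatinase, rose from 0.182 ± 0.0430 to 4.14 ± 0.166 FPKM (log2 fold change 3.92, adjusted p = 2.58e-06 in limma) and was 3.05 ± 0.209 FPKM with WBT. Ccnd1, the cyclin of G1 progression, rose from 84.9 ± 2.31 to 121.5 ± 1.50 FPKM (0.52, adjusted p = 0.0001), and Cd44, the hyaluronan receptor, from 31.9 to 39.5 (0.31, adjusted p = 0.0138). Mmp3, the other gene that rose, stayed below 1 FPKM. Spp1, osteopontin, fell from 91.9 to 80.7 FPKM (-0.19, adjusted p = 0.0274). Many of these genes are also known targets of other factors. In TNF-α+WBT against Con, 4 of the 16 were higher, beside 2.31% of all genes, and none lower.

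Of 16 other immediate early genes, 4 rose and 3 fell, beside 2.94% and 1.93% of all genes tested. Egr1, a zinc finger factor induced together with Fos, fell from 7.41 to 4.66 FPKM (log2 fold change -0.66, adjusted p = 0.000602), and the nuclear receptor gene Nr4a2 from 15.2 to 9.79 (-0.63, adjusted p = 0.0118). Ier3 rose from 19.1 to 31.8 FPKM (0.73, adjusted p = 0.0104) and Ccn1, a matricellular protein, from 64.0 to 77.4 (0.27, adjusted p = 0.0106). Egr3 also fell, and Nr4a1 and Klf6 rose. In TNF-α+WBT against TNF-α none of the genes of these 6 lists was called, where only 0.00393% of all genes were. Against Con 3 immediate early genes were higher and 3 lower with TNF-α+WBT, beside 2.31% and 1.4% of all genes.

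By Pearson correlation of log2(FPKM + 0.1) over the 9 libraries, among 12683 genes, the patterns most like Jun were those of Cyp2j6 (r = 0.999), Sema4f (0.998) and Tubb3 (0.997). For Atf3 they were Kcna1 (0.999), Gas7 (0.995) and Lbh (0.993), and for Fos Coro2b (0.973), Tubb4a (0.964) and Aldh6a1 (0.963). The 9 points share 3 groups, so these are descriptions without a test.

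The Schwann cell list moved in the same direction as Jun, Fos and Atf3. Its summed level was 925.4 to 982.3 FPKM in Con, 751.2 to 813.2 in TNF-α and 817.3 to 846.0 in TNF-α+WBT. With TNF-α, 5 of its 11 tested genes (Ngfr, S100b, Erbb3, Cdh19 and Foxd3) fell, beside 1.93% of all genes tested. The fibroblast list summed to 5345 to 5702, 5635 to 5926 and 5616 to 5727 FPKM. Of its 13 tested genes, 2 rose and 2 fell with TNF-α, beside 2.94% and 1.93% of all genes. None of 8 tested macrophage genes passed the test with TNF-α. Of 12 genes of every cell 1 did (Actb, log2 fold change 0.16), beside 4.86% of all genes. The part of cell type in the AP-1 differences was not tested, and in bulk RNA fewer cells of a type cannot be told apart from less RNA per cell.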

How the data were processed

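The authors deposited FPKM values per gene and per transcript for the 9 libraries, which the study's scheme traces to HISAT2, StringTie and Ballgown. Versions and the genome build are not given in the sources used here. Gene symbols were matched for 55144 of 56289 genes (98.0%), and positions are from GENCODE M21 (GRCm38). As the FPKM values hold no counts, depth was taken from the smallest steps between values of 10499 single-transcript genes over 1000 bases. Of low values, 51.7% to 57.4% per library lay within 0.1 of a whole fragment (20.0% by chance), so fragments are approximate.

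The 25417 genes with a value over 0 in 3 or more libraries were compared two-sided on log2(FPKM + 0.1), which understates changes of low genes, with lmFit and eBayes with a trend in limma 3.58.1 (R 4.3.3), in 1 model with a mean per group. p-values were Benjamini-Hochberg adjusted over all tested genes and called under 0.05. They measure the spread between libraries, which the study describes as biological replicates. The fit was tested on simulated data. Tables were made with Python 3.11.15, pandas 2.3.3 and numpy 2.4.6, and plots with matplotlib 3.10.9.

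The 9 genes, the gene lists and the rule for naming genes were chosen with earlier results of these data known. All 9 genes were named, and of each list up to 4 genes with the smallest p for TNF-α against Con and a mean of at least 1 FPKM, plus the 3 genes most correlated with Jun, Fos and Atf3. Mmp3, Egr3, Nr4a1, Klf6 and the called marker genes were named outside this rule, after their values were seen. Alternatives covered the pseudocount, filter, trend, groups in the model, centring, quantile normalization, transcript sums, the study's thresholds (unadjusted p under 0.05 and fold change over 2), a replicate block and each library left out.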

Additional observations from a re-analysis of the deposited data

How the results depend on the processing

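Jun and Atf3 were called for TNF-α against Con in every alternative, and Junb and Fos in all but the study's thresholds. Jund and Fosl2 each lost that call in 6 of 11 settings besides the left-out libraries (adjusted p up to 0.163 and 0.168, without the trend). Those thresholds called 615 genes, 2 of them AP-1 genes, for TNF-α against Con (1236 and 6 in the report), 284 genes for TNF-α+WBT against TNF-α, and 583 genes with 2 AP-1 genes for TNF-α+WBT against Con (942 and 5). For TNF-α+WBT against TNF-α, where 1 gene was called, the count was 11 with a pseudocount of 0.01, 1 of them the AP-1 gene Atf3, 7 without the trend, 2 with only the groups compared, 2 with transcript sums, and 0 with the replicate number as a block. The AP-1 count for TNF-α+WBT against Con was 3 without the trend and 3 with only the groups compared.

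With 1 library left out, the counts were 823 to 1111 genes and 4 to 6 AP-1 genes (TNF-α against Con, 823 without Con 3), 0 to 10 genes and 0 AP-1 genes (TNF-α+WBT against TNF-α, 0 without Con 2 or TNF-α+WBT 1, 10 without TNF-α+WBT 2) and 579 to 826 genes and 3 to 5 AP-1 genes (TNF-α+WBT against Con, 579 without Con 3). Signs turned for log2 fold changes near 0. These were Junb with WBT, 0.0091 under quantile normalization and -0.07 to 0.0233 with 1 library left out, and, also with 1 left out, Jund (-0.0098 to 0.0664) and Fosb (-0.0196 to 0.14) with WBT against TNF-α, Fosl1 with TNF-α (-0.0019 to 0.23) and Batf3 with WBT against Con (-0.62 to 0.10). The cause was not tested. Jun held 38.6% to 40.0%, 16.8% to 17.1% and 18.8% to 19.3% of its family, and the upstream-start transcript 8.36% to 9.77%, 2.00% to 3.15% and 3.41% to 5.21% of Atf3, in Con, TNF-α and TNF-α+WBT.

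Libraries with the same number did not deviate together more than others (correlations -0.067 to 0.095, beside -0.105 to 0.097 for different numbers). The numbers were therefore not used as pairs, and a shared day or batch was not tested. The block lost the calls of Fosl2 after TNF-α (adjusted p = 0.0999 in limma) and Fos in TNF-α+WBT against Con (adjusted p = 0.0843). Depth limits Batf3 and Fosb most.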
